A study of Mus musculus with 9 samples.

Results

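The MBNL and CELF families are the splicing regulators most closely tied to CUG repeat RNA, and their 9 genes (Mbnl1, Mbnl2, Mbnl3, Celf1, Celf2, Celf3, Celf4, Celf5 and Celf6) were followed through the hippocampi of mice that express such a repeat. The genes were taken by symbol, as whole families, with earlier results of these data already known. All 9 were found among the 24411 genes listed for each mouse, and 8 of them passed the minimum applied before testing, which 14867 genes passed in all. The 9 mice fell into 3 groups of 3. CUG300 CWG-cPIP mice received AAV9 whose Egfp transcript ends in a 3′-UTR with 300 CTG repeats, together with the cyclic pyrrole-imidazole polyamide CWG-cPIP at 83 μg/kg, a compound made to bind CAG/CTG repeat DNA. CUG300 vehicle mice received the same virus with vehicle, and CUG10 mice received AAV9 with 10 CTG repeats and vehicle. All were wild-type C57BL/6J males, 10 weeks old in the labels and 9 weeks at injection in the study's methods, injected on both sides into CA1 of the dorsal hippocampus, with tissue taken 10 days after gene transfer. Every group therefore carried a virus, no uninjected group was analysed here, and the promoter of the transgene is not given in the sources used here. Values are rlog values, log2-scale expression that the authors scaled between libraries and shrank toward each gene's mean. They carry no read counts, and sequencing depth per mouse is therefore unknown.

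Muscleblind-like (MBNL) proteins bind YGCY motifs in RNA through zinc fingers and steer alternative splicing, mostly toward the adult pattern. In myotonic dystrophy type 1, transcripts with an expanded CUG repeat collect MBNL proteins in nuclear foci, and the splicing they control shifts back toward fetal forms. CUGBP Elav-like family (CELF) proteins bind GU-rich RNA, often act against MBNL on the same exons, and also influence mRNA decay and translation. The study's introduction also describes CUGBP1, the product of Celf1, as raised by such foci. Capture acts on protein. The level of the mRNA, which is what was measured here, is a separate quantity from the amount or activity of protein.

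Because CWG-cPIP is directed at CAG/CTG repeats, the longest CAG runs in the members' own transcripts were read from the GENCODE transcripts on GRCm38. They are shown in the transcript's strand, 5′ to 3′, with the run in capitals.
Celf3, coding exon 11 of 14, chr3:94488227-94488256 (+): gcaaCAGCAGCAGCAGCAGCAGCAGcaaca
Celf5, 3′ UTR, chr10:81461425-81461454 (−): tcggctaccCAGCAGCAGCAGcctacagag
Celf1, coding exon 8 of 15, chr2:91004769-91004798 (+): ccagcagctcCAGCAGCAGatgcagcagat
Celf3 held the longest run, 7 CAG units, inside an in-frame tract of 16 CAG or CAA codons. A run of CAG at least that long was present in 0.788% of 13841 genes compared. The 4 CAG units of Celf5 were matched or exceeded in 3.82% of genes, and lay in the 3′ UTR of 3 of its 5 protein-coding transcripts. Runs of 3 CAG units, as in Celf1 and Celf2, were common, and 16.9% of genes held one of at least that length. In the protein-coding transcripts of Mbnl1, Mbnl2, Mbnl3, Celf4 and Celf6 no CAG run exceeded 2 units. Runs of CTG in the transcript's strand were not searched, and neither were introns, so repeats there are unknown. Every CAG run was far shorter than the 300 repeats of the vector, and a run is a description of the sequence and not a binding site.

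Levels of the members in CUG10 mice spanned a wide range. On the rlog scale with log2 of the longest transcript's length in kb subtracted, Celf4, a neuronal CELF gene on chromosome 18, had the highest level (10.80), and Mbnl3, best known from placenta and developing muscle, had the lowest (0.46). Celf6 was the second lowest (6.17). With the median transcript length in place of the longest, Celf4, Celf6 and Mbnl3 kept these places at 11.41, 6.32 and 1.66. Mbnl2, the main MBNL gene of the brain, lay above Mbnl1, the main one of muscle, at 9.29 against 7.90 with the longest transcript and 9.96 against 9.24 with the median one. Between Celf4 at the top and Celf6, the order of most of the other members, Mbnl2 and Celf2 among them, changed with the length used, so no full order is given. Mbnl3, with an rlog mean of 2.68 in CUG10 mice, was the member below the minimum of log2(10).

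Some properties of the whole series bear on these genes. All neuron and hippocampal neuron markers were detected in every mouse, and none of the markers used stood at 0 in any mouse. Markers of infiltrating leukocytes averaged 5.47 to 7.42 in CUG300 CWG-cPIP mice, 6.98 to 7.69 in CUG300 vehicle mice and 4.87 to 5.25 in CUG10 mice, and 8 of 9 were higher in CUG300 vehicle than in CUG10 mice by limma. Neuron markers averaged 12.81 to 13.04 in CUG300 CWG-cPIP mice, 12.63 to 12.89 in CUG300 vehicle mice and 13.12 to 13.20 in CUG10 mice, and 2 of 8 were lower in CUG300 vehicle than in CUG10 mice. Choroid plexus markers averaged 6.89 to 6.95 in CUG300 CWG-cPIP mice, 8.74 to 10.04 in CUG300 vehicle mice and 6.59 to 9.60 in CUG10 mice. Treated and vehicle CUG300 mice thus did not overlap on them, and a fit with this level as a covariate cannot separate it from treatment. Between mice of a group, Pearson's r across genes was 0.9699 to 0.9919 in CUG300 CWG-cPIP, 0.978 to 0.9851 in CUG300 vehicle and 0.9925 to 0.9964 in CUG10 mice. Treated mouse 2 had the lowest leukocyte level of its group and treated mouse 3 the highest.

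The first question was whether the long repeat altered the members' mRNA. In CUG300 vehicle mice Mbnl1 was 1.3-fold higher and Celf5 was lower, at 0.734 of its level in CUG10 mice, whereas the other 6 members tested did not pass the test. Mbnl1 encodes a muscleblind protein that CUG repeats capture, and Celf5 a CELF protein found mainly in neurons. The count of 2 of 8 members stood beside 10.7% of all genes tested that were called in this comparison, 7.37% higher and 3.34% lower (limma over the 9 mice, Benjamini-Hochberg adjusted p under 0.05). Groups without any overlap were found in 34.9% of genes and in 3 of 8 members (Mbnl1, Celf5 and Celf6). The number of genes called, 1592, depended on single mice: it was 0 without CUG10 mouse 1, CUG10 mouse 3 or CUG300 vehicle mouse 3, 2 without CUG10 mouse 2, 265 without treated mouse 1 and 2490 without CUG300 vehicle mouse 2.

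Mbnl1, on chromosome 3 of GRCm38 from 60472830 to 60629750, had rlog values of 10.80, 10.63 and 10.80 in CUG300 CWG-cPIP mice, 10.78, 10.84 and 10.72 in CUG300 vehicle mice, and 10.45, 10.38 and 10.37 in CUG10 mice. All 6 mice with the long repeat lay above all 3 CUG10 mice, and the treated and vehicle mice overlapped. CUG300 vehicle mice exceeded CUG10 mice by 0.38 on the log2 scale (SE 0.08, 95% interval 0.19 to 0.57, limma adjusted p = 0.0289, n = 3 mice per group). CWG-cPIP-treated mice exceeded CUG10 mice by 0.34 (interval 0.15 to 0.53), which did not pass after adjustment (limma adjusted p = 0.163). Between CWG-cPIP and vehicle in CUG300 mice the difference was -0.04 (interval -0.23 to 0.15, limma adjusted p = 0.816), so a lowering of Mbnl1 by the compound of more than 0.23 lay outside the interval of this pooled fit. With only the groups compared the SE was 0.11, against 0.08 here, and the bound is wider there. The direction against CUG10 held in each alternative run. The call was lost when any CUG10 mouse, CUG300 vehicle mouse 3 or treated mouse 1 was left out (0.37 to 0.41, limma adjusted p = 0.0594 to 0.118). With the choroid plexus level as a covariate it was also lost (0.42, limma adjusted p = 0.105). There the SE rose to 0.11 and the change was no smaller.

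**Figure D1:**
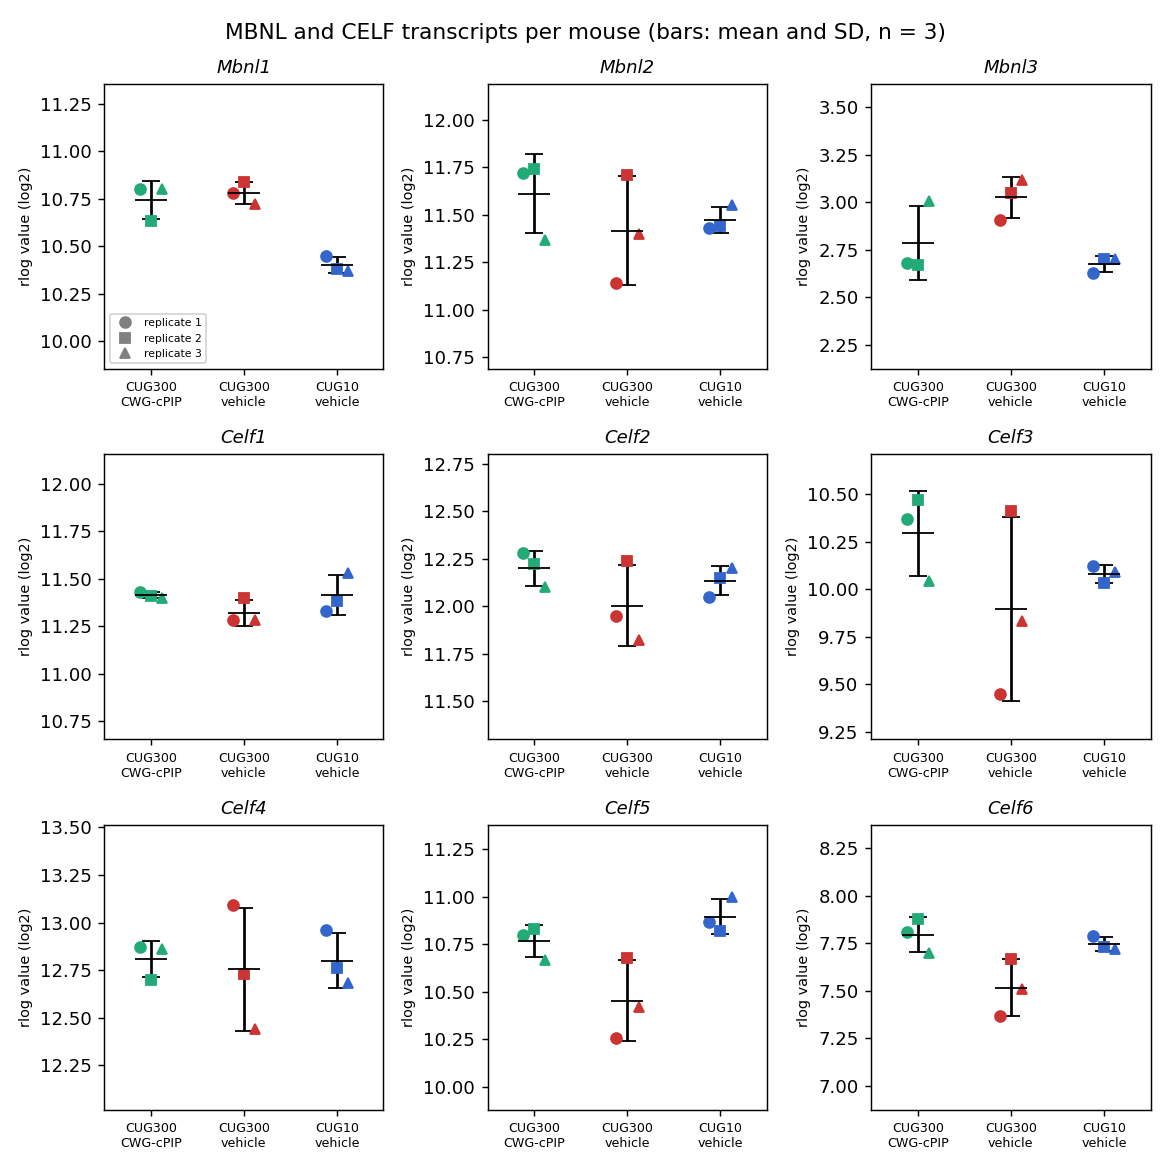
Rlog values (log2, vertical axes, each panel 1.5 units high) of the 9 MBNL and CELF genes in CUG300 CWG-cPIP, CUG300 vehicle and CUG10 vehicle mice. Points are mice, shapes are replicate numbers, and bars give the mean and SD of 3 mice; the 3 CUG10 mice lie below all 6 others for Mbnl1 (10.37 to 10.45) and above the CUG300 vehicle mice for Celf5 (10.82 to 11.00).

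Other genes ran closely with Mbnl1. Over the 9 mice, with each gene centred and scaled to SD 1, the 5 genes nearest to it among 13975 were Azi2, Ly6c1, Sfxn2, Perm1 and Sppl2a, at root mean square differences of 0.171 to 0.217. Ly6c1, a surface protein of endothelial cells and some leukocytes, was 1.05 higher on the log2 scale in CUG300 vehicle than in CUG10 mice (limma adjusted p = 0.0207). Azi2, an adaptor in the signalling that induces interferon, was 0.40 higher (limma adjusted p = 0.0299), and the other 3 were 0.49 to 0.84 higher. Ly6c1 has close copies, so its reads could be split between genes. These genes were picked for their likeness to Mbnl1, and their changes add no separate evidence.

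The mean of the leukocyte markers, like Mbnl1, lay higher in all 6 mice with the long repeat than in CUG10 mice. With CWG-cPIP against vehicle the leukocyte marker median was -0.76, with none passing, and Mbnl1 was at -0.04. Mbnl1 was 10.80 in both treated mouse 1 and treated mouse 3, where the leukocyte means were 6.35 and 7.42. In treated mouse 2, which lay nearest to CUG10 mice on the leukocyte markers at 5.47, Mbnl1 was 10.63, the lowest of the 6 mice with the long repeat and still above the highest CUG10 mouse at 10.45. CUG300 vehicle mouse 3 had the highest leukocyte mean, 7.69, with Mbnl1 at 10.72, the lowest of its group. Markers of resident glia also differed between CUG300 vehicle and CUG10 mice. Of 6 astrocyte markers 2 rose by limma, Gfap, an intermediate filament of reactive astrocytes, by 1.21 (adjusted p = 0.0267) and the water channel Aqp4 by 0.91 (adjusted p = 0.0228). Aqp4 differed by 0.05 between CWG-cPIP and vehicle and by 0.96 between CWG-cPIP and CUG10 mice (limma adjusted p = 0.891 and 0.119). Of 6 microglia markers 2 rose, Aif1 by 1.63 (limma adjusted p = 0.0422) and Tmem119 by 0.77 (limma adjusted p = 0.0265). The astrocyte mean was 12.22 to 12.52 in CUG300 CWG-cPIP mice, 11.99 to 12.40 in CUG300 vehicle mice and 11.96 to 12.06 in CUG10 mice. The microglia mean was 9.72 to 10.00 in CUG300 CWG-cPIP mice, 9.98 to 10.20 in CUG300 vehicle mice and 9.42 to 9.79 in CUG10 mice. None of 5 endothelial markers passed (median 0.45). The part of leukocytes, astrocytes, microglia or endothelial cells in the difference of Mbnl1 was not tested, and in bulk tissue more cells of a type and more RNA per cell cannot be told apart.

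**Figure D2:**
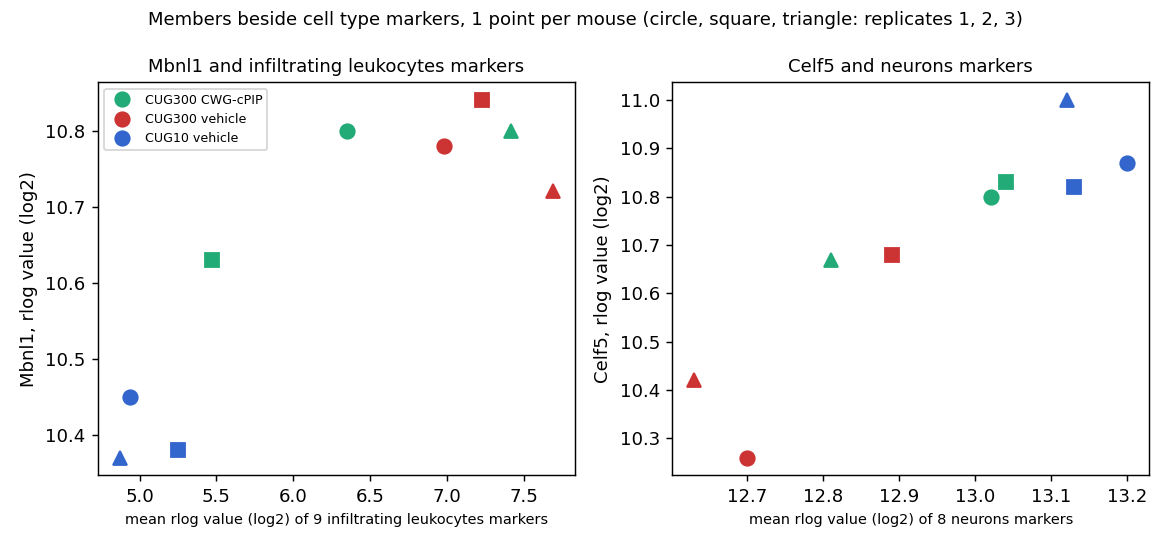
Left, Mbnl1 (rlog, log2) against the mean rlog value of 9 infiltrating leukocyte markers; right, Celf5 against the mean of 8 neuron markers. Each point is a mouse and its colour the group. Mbnl1 ran from 10.37 to 10.84 and the leukocyte mean from 4.87 to 7.69, with the highest value of each in different mice. The 2 CUG300 vehicle mice lowest in Celf5 (10.26 and 10.42) were also lowest in neuron markers (12.70 and 12.63).

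The other muscleblind genes did not pass the test. Mbnl2 had 11.72, 11.74 and 11.37 in CUG300 CWG-cPIP mice, 11.14, 11.71 and 11.40 in CUG300 vehicle mice, and 11.43, 11.44 and 11.55 in CUG10 mice. The 3 groups overlapped, and the CUG300 vehicle mice spread most (SD 0.288, against 0.0664 in CUG10 mice). The difference of CUG300 vehicle from CUG10 mice was -0.06 (SE 0.16, interval -0.41 to 0.30, limma adjusted p = 0.84). The upper bound of that interval, 0.30, lay below the change of Mbnl1 and within the interval of Mbnl1. With CWG-cPIP against vehicle it was 0.19 (interval -0.16 to 0.54, limma adjusted p = 0.548), and against CUG10 mice 0.14 (limma adjusted p = 0.775). The 5 genes with the most similar profile were Usp22, Ralgapa2, Slc2a13, Cep295 and Tada2b, at root mean square differences of 0.146 to 0.214. Usp22 encodes a deubiquitinase and Tada2b a transcriptional adaptor, and all 5 differed from CUG10 mice by -0.14 to -0.09 with none called (smallest limma adjusted p = 0.68).

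Mbnl3, which lies on the X chromosome, was low throughout, at 2.68, 2.67 and 3.01 in CUG300 CWG-cPIP mice, 2.91, 3.05 and 3.12 in CUG300 vehicle mice, and 2.63, 2.70 and 2.70 in CUG10 mice. Each CUG300 vehicle mouse lay above each CUG10 mouse, and treated mouse 3 lay with the vehicle mice while treated mice 1 and 2 lay with the CUG10 mice. Without the minimum on expression, CUG300 vehicle mice exceeded CUG10 mice by 0.35 (interval 0.12 to 0.58), which did not pass (limma adjusted p = 0.068 over the genes of that fit). CWG-cPIP and vehicle differed by -0.24 (interval -0.47 to -0.02, limma adjusted p = 0.517). At this level rlog shrinkage is strong, and these values understate differences on the count scale.

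Because Mbnl1 and Mbnl2 can stand in for each other on many exons, their difference within a mouse was also taken, which does not depend on the scaling of that mouse. Mbnl1 minus Mbnl2 was -0.92, -1.11 and -0.57 in CUG300 CWG-cPIP mice, -0.35, -0.88 and -0.68 in CUG300 vehicle mice, and -0.98, -1.06 and -1.18 in CUG10 mice. Mbnl1 was thus below Mbnl2 on the rlog scale in each mouse, on average by least in CUG300 vehicle mice, which did not overlap CUG10 mice, while treated mice overlapped both. Celf1 minus Mbnl1, which sets the best known antagonists side by side, was 0.63, 0.79 and 0.60 in CUG300 CWG-cPIP mice, 0.50, 0.56 and 0.56 in CUG300 vehicle mice, and 0.88, 1.00 and 1.16 in CUG10 mice. Here neither group with the long repeat overlapped the CUG10 mice, and the treated mice lay above the vehicle mice. Most of the distance from CUG10 mice is that of Mbnl1 itself, at 0.38 in vehicle and 0.34 in treated mice. Celf1 stood at -0.09 and 0.00. These differences are descriptions with no test, and the share of all gene pairs without overlap was not taken.

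**Figure D3:**
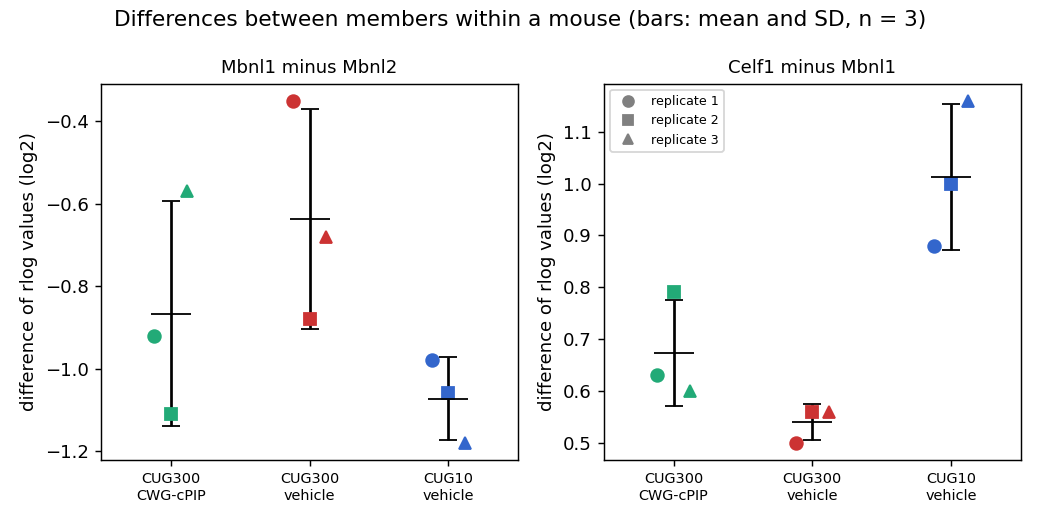
Difference of rlog values (log2) within each mouse for Mbnl1 minus Mbnl2 and Celf1 minus Mbnl1, in CUG300 CWG-cPIP, CUG300 vehicle and CUG10 vehicle mice; bars give the mean and SD of 3 mice. Celf1 minus Mbnl1 lies at 0.50 to 0.79 in the 6 mice with the long repeat and at 0.88 to 1.16 in CUG10 mice.

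Among the CELF genes, a single one was called. Celf5, on chromosome 10 from 81459227 to 81482709, had 10.80, 10.83 and 10.67 in CUG300 CWG-cPIP mice, 10.26, 10.68 and 10.42 in CUG300 vehicle mice, and 10.87, 10.82 and 11.00 in CUG10 mice. The CUG300 vehicle mice lay below all CUG10 mice, and the treated mice overlapped both groups, with treated mouse 3 (10.67) just under vehicle mouse 2 (10.68) and treated mouse 2 (10.83) just above CUG10 mouse 2 (10.82). CUG300 vehicle differed from CUG10 mice by -0.45 (SE 0.12, interval -0.71 to -0.18, limma adjusted p = 0.044, n = 3 per group). CWG-cPIP-treated mice exceeded vehicle mice by 0.31 (interval 0.05 to 0.58, unadjusted p = 0.0255 by limma), which did not pass over all genes (limma adjusted p = 0.483), and differed from CUG10 mice by -0.13 (interval -0.40 to 0.13, limma adjusted p = 0.685). In a limma fit of only the treated and vehicle mice the unadjusted p of Celf5 was not under 0.05. The call against CUG10 mice stood close to the threshold and was lost in 12 of 18 alternatives (limma adjusted p = 0.0513 to 0.162), with the change between -0.49 and -0.35 in all of them. Among these were the fits without any one of the CUG10 mice, without CUG300 vehicle mouse 1 or 3, and without treated mouse 1.

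The general neuron markers moved in the same direction as Celf5. Of 8 markers, Syt1, the calcium sensor of transmitter release, was lower by limma in CUG300 vehicle than in CUG10 mice (-0.51, adjusted p = 0.043), as was Nefl, a neurofilament subunit (-0.54, adjusted p = 0.0316), and the median of the list was -0.42. Celf5 minus the mean of the neuron markers was -2.22, -2.21 and -2.14 in CUG300 CWG-cPIP mice, -2.44, -2.21 and -2.21 in CUG300 vehicle mice, and -2.32, -2.31 and -2.12 in CUG10 mice. On that measure the 3 groups overlapped. The 7 hippocampal neuron markers had a median of -0.02 in CUG300 vehicle against CUG10 mice. Of these, Fibcd1 was lower (-0.80, limma adjusted p = 0.0241) and the others did not pass. Their mean was 9.16 to 9.41 in CUG300 vehicle mice and 9.36 to 9.48 in CUG10 mice. Fewer neurons and less Celf5 RNA per neuron cannot be told apart.

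Celf6, another neural member, had 7.81, 7.88 and 7.70 in CUG300 CWG-cPIP mice, 7.37, 7.67 and 7.51 in CUG300 vehicle mice, and 7.79, 7.73 and 7.72 in CUG10 mice. The CUG300 vehicle mice lay below both other groups without overlap. The difference from CUG10 mice was -0.23 (interval -0.48 to 0.02, limma adjusted p = 0.2), and that of CWG-cPIP from vehicle was 0.28 (interval 0.03 to 0.53, unadjusted p = 0.0343, limma adjusted p = 0.483). Neither passed. CWG-cPIP-treated and CUG10 mice differed by 0.05 (interval -0.20 to 0.30, limma adjusted p = 0.902).

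Celf3, the neural member with the long CAG tract shown above, had 10.37, 10.47 and 10.04 in CUG300 CWG-cPIP mice, 9.45, 10.41 and 9.83 in CUG300 vehicle mice, and 10.12, 10.03 and 10.09 in CUG10 mice. Vehicle mice 1 and 3 were the lowest of all and vehicle mouse 2 among the highest, so the groups overlapped (SD 0.483 in vehicle mice, against 0.0428 in CUG10 mice). The difference of CUG300 vehicle from CUG10 mice was -0.19 (SE 0.22, interval -0.68 to 0.31, limma adjusted p = 0.595). The change with CWG-cPIP against vehicle was 0.40 (interval -0.09 to 0.89, limma adjusted p = 0.483), and it did not pass either. This value rested on single mice: it was 0.17 without CUG300 vehicle mouse 1 and 0.65 without CUG300 vehicle mouse 2. With the choroid plexus level as a covariate it was 0.10 with an SE of 0.35. That level did not overlap between the groups compared, so this fit cannot separate it from treatment. In the main fit treated mice differed from CUG10 mice by 0.21 (interval -0.28 to 0.70).

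Celf1, the founding CUG-binding protein of the family and present in most tissues, had 11.43, 11.41 and 11.40 in CUG300 CWG-cPIP mice, 11.28, 11.40 and 11.28 in CUG300 vehicle mice, and 11.33, 11.38 and 11.53 in CUG10 mice. Treated mice lay just above vehicle mice, by less than 0.01 at the nearest pair, and both overlapped CUG10 mice. CUG300 vehicle differed from CUG10 mice by -0.09 (SE 0.08, interval -0.29 to 0.10, limma adjusted p = 0.478), and CWG-cPIP from vehicle by 0.10 (interval -0.10 to 0.29, limma adjusted p = 0.577). A rise of Celf1 mRNA above 0.10 with the long repeat lay outside the interval of this pooled fit. With only the groups compared the SE was 0.11, and the bound is wider there. The genes nearest to Celf1 in profile, Fv1, Tbck, Ints3, Cacna1d and Ago4, stood farther off (0.315 to 0.359) than those of Mbnl1 or Mbnl2. Among them Cacna1d, a calcium channel subunit, has exons regulated by these families, and Ago4 is an Argonaute protein; none was called in CUG300 vehicle against CUG10 mice (smallest limma adjusted p = 0.0865, for Fv1).

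Celf2, also broad in its expression and abundant in brain, had 12.28, 12.22 and 12.10 in CUG300 CWG-cPIP mice, 11.95, 12.24 and 11.82 in CUG300 vehicle mice, and 12.05, 12.15 and 12.20 in CUG10 mice. All groups overlapped. The difference of CUG300 vehicle from CUG10 mice was -0.13 (interval -0.39 to 0.14, limma adjusted p = 0.489), and that of CWG-cPIP from vehicle 0.19 (interval -0.07 to 0.46, limma adjusted p = 0.484). Celf4, which binds many synaptic mRNAs in neurons, had 12.87, 12.70 and 12.86 in CUG300 CWG-cPIP mice, 13.09, 12.73 and 12.44 in CUG300 vehicle mice, and 12.96, 12.76 and 12.68 in CUG10 mice. The vehicle mice held both its highest and its lowest value. Its differences were -0.05 (interval -0.41 to 0.31) for CUG300 vehicle against CUG10, 0.06 (interval -0.31 to 0.42) for CWG-cPIP against vehicle, and 0.01 for CWG-cPIP against CUG10, with the smallest limma adjusted p at 0.86.

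**Figure D4:**
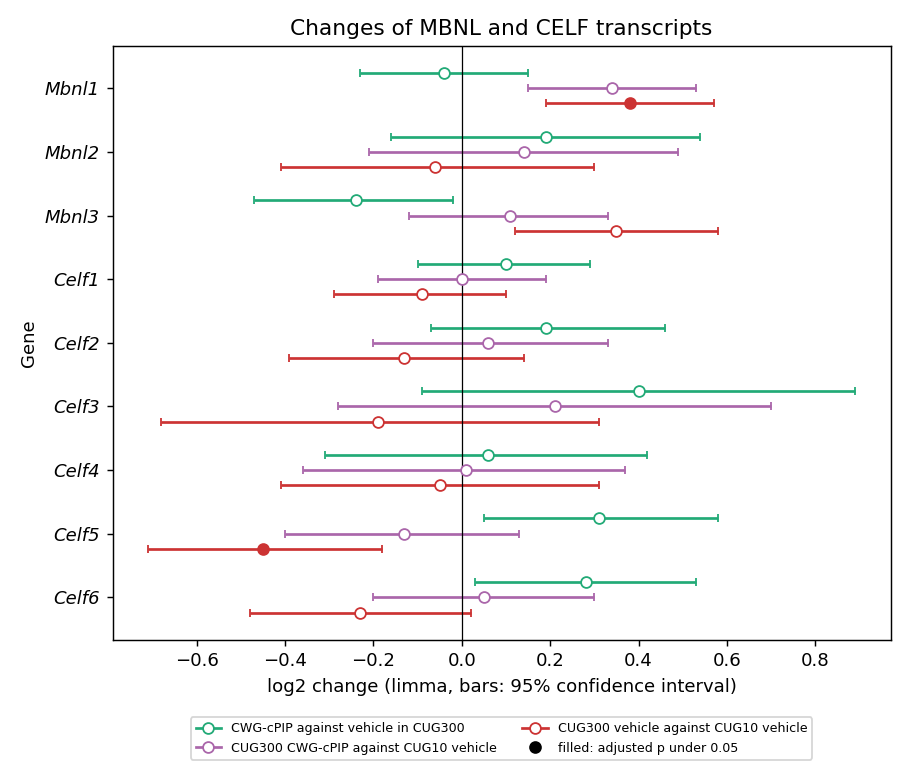
Log2 changes of the 9 genes in each comparison (horizontal axis; limma estimates with 95% confidence intervals), with filled points for adjusted p under 0.05. The filled points are Mbnl1 (0.38) and Celf5 (-0.45) in CUG300 vehicle against CUG10 mice; Mbnl3 comes from the fit without the minimum.

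Across the 6 CELF genes the change in CUG300 vehicle against CUG10 mice ran from -0.45 to -0.05 with a median of -0.16, while the median over all genes tested was -0.01. All 6 values were negative, as were 7678 of the 14867 genes tested, and 1 passed. Celf3 and Celf4 changed sign when single mice were left out. Other neuronal splicing regulators had a median of -0.22 and neuron markers of -0.42. The second question was what CWG-cPIP did to these genes in CUG300 mice. No member and no other gene passed there (0% of 14867 called by limma). At an unadjusted p under 0.05 there were 1312 genes (8.82%), among them Celf5 and Celf6. That number was 409 to 451, with 0 members, without CUG300 vehicle mouse 3, treated mouse 1 or treated mouse 2. It was 3920 with 5 members without CUG300 vehicle mouse 2, and 3679 with 2 members without treated mouse 3. Without CUG300 vehicle mouse 1 it held 0 members, without CUG10 mouse 2 or 3 it held 1, and with the choroid plexus covariate it was 181 with 0 members. With only the groups compared it was 630 with 0 members. The SE was then 0.14 for Celf5 and 0.14 for Celf6, against 0.12 and 0.11 with the CUG10 mice in the pooled variance. Without overlap between groups stood 8.47% of genes, and of the members Celf1 and Celf6 were such. The 6 CELF values ran from 0.06 to 0.40 with a median of 0.24, beside a median of 0.00 over all genes. Other neuronal splicing regulators and neuron markers each had a median of 0.22. This comparison shares the CUG300 vehicle mice with the one before it, so a low vehicle value lowers the one and raises the other, and the pair is no separate evidence of a return.

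The third comparison set CWG-cPIP-treated CUG300 mice against CUG10 mice. No gene passed the adjusted threshold (0%), and 1997 genes (13.4%) had an unadjusted p under 0.05, among which Mbnl1 was the member. That number was 1126 to 1324, with 1 member each, without CUG10 mouse 2 or 3 or treated mouse 1 or 3, and 892 with the choroid plexus covariate. Mbnl1 was also the member whose groups did not overlap, where 25.8% of all genes did not. The other members' differences lay between -0.13 for Celf5 and 0.21 for Celf3, and the median of the 8 members tested was 0.06. Without treated mouse 2, 567 genes were called in this comparison, and the members were not among them.

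The other CELF genes were set against neuron markers in the same way as Celf5. The neuron mean itself was 12.63 to 13.04 in mice with the long repeat and 13.12 to 13.20 in CUG10 mice. A gene that fell less than this mean, or did not fall, therefore lies higher on this measure by construction. Celf6 minus the neuron mean was -5.21, -5.16 and -5.10 in CUG300 CWG-cPIP mice, -5.33, -5.22 and -5.12 in CUG300 vehicle mice, and -5.40, -5.40 and -5.41 in CUG10 mice. Relative to neuron markers, then, Celf6 lay higher in each mouse with the long repeat, although its own value was lowest in vehicle mice. Celf2 relative to the neuron mean averaged -0.76 in CUG300 CWG-cPIP mice, -0.74 in CUG300 vehicle mice and -1.02 in CUG10 mice, again with the CUG10 mice apart. For Celf1 the mean was -1.54 in CUG300 CWG-cPIP mice, -1.42 in CUG300 vehicle mice and -1.74 in CUG10 mice, and CUG300 vehicle mice did not overlap CUG10 mice. Celf3 minus the neuron mean was -2.65, -2.57 and -2.77 in CUG300 CWG-cPIP mice, -3.25, -2.48 and -2.80 in CUG300 vehicle mice, and -3.08, -3.10 and -3.03 in CUG10 mice. Here vehicle mice overlapped CUG10 mice, with vehicle mouse 1 the lowest of all, and the treated mice lay above CUG10 mice. For Celf4 the differences were -0.15, -0.33 and 0.05 in CUG300 CWG-cPIP mice, 0.39, -0.16 and -0.19 in CUG300 vehicle mice, and -0.23, -0.37 and -0.44 in CUG10 mice. The treated mice overlapped both other groups, and vehicle mice lay above CUG10 mice. No test was run on these differences, and the share of all genes that lie higher on this measure was not taken.

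The members also differed in how alike they ran over the 9 mice. Mbnl2 and Celf3 were the nearest pair (root mean square difference of scaled values 0.284 over 9 mice), followed by Celf5 and Celf6 (0.464) and Celf3 and Celf6 (0.47). Mbnl1 was at 1.26 or more from each other tested member and at 1.31 from its paralog Mbnl2. Celf4 stood apart likewise, at 1.25 or more from every other tested member. These distances are descriptions over 3 groups of mice, with no test.

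Proteins that other work has placed on CUG repeat RNA, or that act on MBNL and CELF, were 13 in number. Of these, 2 rose in CUG300 vehicle against CUG10 mice, none fell and 11 did not pass, with a median change of 0.06. Eif2ak2, the RNA-activated kinase PKR, which interferon also induces, rose by 2.60 (limma adjusted p = 0.0207). Hnrnpf, a splicing factor related to the hnRNP H proteins found on repeat RNA, rose by 0.52 (limma adjusted p = 0.0308). The RNA helicases Ddx5 and Ddx6 stood at 0.06 and -0.09 and did not pass. Gsk3b and Prkca, kinases that act on CELF1, had -0.32 and -0.24 without passing. None of the 13 passed with CWG-cPIP against vehicle (median 0.02) or against CUG10 mice (median 0.03).

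Of 15 other neuronal splicing regulators, 2 rose and 1 fell in CUG300 vehicle against CUG10 mice, with a median of -0.22. Ptbp1, a repressor of neuronal exons made mainly outside neurons, rose by 0.79 (limma adjusted p = 0.0234), and its paralog Ptbp3, known from blood cells, by 0.71 (limma adjusted p = 0.0476). Nova2, a splicing factor of neurons, fell by 0.42 (limma adjusted p = 0.0267). The neuronal Rbfox1 had -0.18 and Rbfox2 -0.16, without passing. With CWG-cPIP against vehicle none of the 15 passed and the median was 0.22, and against CUG10 mice it was 0.04.

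At the level of whole genes, 15 brain transcripts whose exons MBNL or CELF proteins regulate had a median of -0.36 in CUG300 vehicle against CUG10 mice, and 3 of them fell. Grin1, the obligatory NMDA receptor subunit, fell by 0.46 (limma adjusted p = 0.0378). Add1, a protein of the membrane skeleton, fell by 0.36 (limma adjusted p = 0.0382), as did App, which encodes the precursor of amyloid β, by 0.35 (limma adjusted p = 0.0459). Mapt, the microtubule protein tau, had -0.39 and missed the threshold (limma adjusted p = 0.0596). These transcripts are largely neuronal. The general neuron marker median of -0.42 and the hippocampal neuron marker median of -0.02 stand beside them, and the part of neurons was not tested. None of the 15 passed with CWG-cPIP against vehicle (median 0.23) or against CUG10 mice (median -0.15), and gene values say nothing of which exons were included.

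The mouse genes at the loci of myotonic dystrophy did not pass the test. Dmpk, whose human counterpart carries the CTG expansion of type 1, had -0.31 in CUG300 vehicle against CUG10 mice (limma adjusted p = 0.274), and its neighbour Dmwd -0.12 (limma adjusted p = 0.399). None of the 4 genes, which include Six5 and Cnbp, passed in any comparison, and their medians were -0.12 in that comparison, -0.05 for CWG-cPIP against vehicle and -0.11 for CWG-cPIP against CUG10.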

How the data were processed

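Hippocampal RNA of 9 mice was sequenced, 1 library per mouse. Per the submitters' processing notes and the study's methods, the authors used Trim Galore 0.6.6 for trimming, STAR 2.7.9a for alignment to GRCm38/mm10 and RSEM 1.3.3 for quantification, and deposited rlog values on the log2 scale made with DESeq2 1.36.0. These are scaled by size factors and shrunk, most at low counts, so they understate changes of weakly expressed genes. Annotation and use of strand are not given in the sources used here. With no counts, no count model was fitted.

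Genes averaging log2(10) or more over all mice were compared with limma 3.58.1 (R 4.3.3; variance trend, 1 mean per group, 1 variance pooled over 9 mice), Benjamini-Hochberg adjusted over 14867 genes. Of the genes listed, 5175 stood at 0 in all mice; 23 tested symbols had become dates and are not named. Mbnl3 was fitted without the minimum. Calls required an adjusted p under 0.05. Members and gene lists were chosen with earlier results of these data known. Of each list the first 2 genes written and the called genes with the largest rises and falls (at most 3 each) are named; for Mbnl1, Mbnl2 and Celf1 also the 5 genes nearest in profile. Gsk3b, Prkca, Six5 and Cnbp were chosen outside that rule, after their values were seen. Alternatives were other scalings, filters, thresholds and limma forms, a replicate block, only the groups compared, the choroid plexus level as a covariate and leaving out each mouse. The procedure was tested on simulated data. Some sequences are not reported here.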

Additional observations from a re-analysis of the deposited data

How the results depend on the processing

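Depth is unknown, 3 mice per group leave intervals of about 0.19 to 0.49 either side of a member's change, and rlog values cannot show splicing or protein. In CUG300 vehicle against CUG10 mice, limma called 1592 genes. Without 1 mouse the count ran from 0 to 2490: it was 0 without CUG10 mouse 1, CUG10 mouse 3 or CUG300 vehicle mouse 3, 2 without CUG10 mouse 2, 265 without treated mouse 1 and 2490 without CUG300 vehicle mouse 2. It was 1 with the choroid plexus level as a covariate, and 0 at an adjusted p under 0.01. The choroid plexus level did not overlap between treated and vehicle CUG300 mice, so calls lost with this covariate cannot be assigned to it. Of the called genes 68.8% were higher, as against 52.8% with median centering and 58% with quantile scaling, both of which moved the median of all genes by -0.08. Members called went to 1 with quantile scaling, no filter, no variance trend or only the groups compared, to 0 with the covariate, an adjusted p under 0.01 or a required change over 0.5, and ran from 0 to 2 without 1 mouse. Mbnl1 ran from 0.35 to 0.41 without 1 mouse and was 0.42 with the covariate (adjusted p = 0.105). It was 0.31 with median centering (limma adjusted p = 0.0464) and 0.42 with quantile scaling (limma adjusted p = 0.0258). Celf5 ran from -0.56 to -0.35 without 1 mouse. Its adjusted p was 0.0581 with quantile scaling (-0.41), 0.0541 with no filter, 0.0513 without trend and 0.0702 with only the groups compared (-0.45 in each), and 0.157 with the covariate (-0.43).

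With CWG-cPIP against vehicle 3 genes were called with only the groups compared, and 0 to 3 without 1 mouse. Against CUG10 mice 14 were called with only the groups compared, and 0 to 567 without 1 mouse, 567 being without treated mouse 2. No member was called in either comparison under any alternative. Mbnl3 was called in CUG300 vehicle against CUG10 mice with only the groups compared (adjusted p = 0.0359) and without treated mouse 3 (adjusted p = 0.0171).

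The members that changed sign were uncalled in the comparisons concerned. With quantile scaling Mbnl2 was 0.0021 and Celf4 0.0109 in CUG300 vehicle against CUG10 mice, and Celf6 -0.0348 in CWG-cPIP against CUG10 mice. With median centering Celf1 was -0.0589, Celf4 -0.0522 and Celf6 -0.0094 in the same comparison, and with the covariate Celf4 was -0.0327 and Celf6 -0.0187 there, and Celf4 -0.0235 in CWG-cPIP against vehicle. Without 1 mouse, Mbnl2 ran from -0.20 to 0.084, Celf3 from -0.44 to 0.0376 and Celf4 from -0.22 to 0.11 in CUG300 vehicle against CUG10 mice. Celf4 ran from -0.10 to 0.23 and Mbnl1 from -0.069 to 0.0192 in CWG-cPIP against vehicle, and Mbnl3 from -0.007 to 0.17, Celf1 from -0.0433 to 0.0595 and Celf4 from -0.0529 to 0.087 in CWG-cPIP against CUG10 mice. The cause was not tested.

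The replicate numbers are shared by all groups, but deviations from the group means of same-numbered mice correlated from -0.499 to 0.413, and 3 of 9 mice correlated best with their own number, so the numbers were not taken as a pairing. With the replicate number as a block, 1512 genes and 1 member were called in CUG300 vehicle against CUG10 mice, with Celf5 at -0.45 (adjusted p = 0.0598), and 0 genes in each of the other comparisons.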
